A study of Homo sapiens with 4 samples.

Results

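The 7 genes described here, ID1, ID2, ID3, TSC22D1, GADD45B, SMAD7 and TGFBR2, are targets, a regulator and a receptor of TGF-beta and BMP signalling, and each was read as the set of ChIP-seq peaks at its place in the genome of HCT116 cells. Peaks of TAF3, H3K4me3 and RNAPII were taken where they overlapped the gene's hg19 span, given to the nearest kb, with 2 kb added on either side. This gave 20 of the 17887 TAF3 peaks, 17 of the 17975 H3K4me3 peaks and 70 of the 61456 RNAPII peaks in the authors' full lists. HCT116 is an established human colorectal carcinoma line. TAF3 is a subunit of TFIID, the general factor that binds the core promoter. H3K4me3 is the trimethylation of histone H3 at lysine 4 found at promoters, and RNAPII is RNA polymerase II. There was 1 library for each of the 3 antibodies and 1 of input DNA, all from this line grown in one medium, and the labels name no added ligand and no other treatment. After removal of duplicates the libraries held 17411155 TAF3, 12560129 H3K4me3, 16841238 RNAPII and 19185386 input tags. The genes were chosen by name and by the TAF3 and RNAPII peak strengths of these libraries, so their places in those lists are a description and carry no test.

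TGF-beta and BMP ligands bind paired type I and type II receptors on the cell surface. The activated receptors phosphorylate SMAD proteins, which enter the nucleus with SMAD4 and act on target genes. TGFBR2 is the type II receptor for TGF-beta, and colorectal lines with mismatch repair defects, HCT116 among them, are known for inactivating mutations in it. SMAD7 is an inhibitory SMAD that is itself induced by the pathway and holds the receptors in check. ID1, ID2 and ID3 encode helix-loop-helix proteins without a DNA-binding region that sequester basic helix-loop-helix factors, and they are known as early BMP targets. GADD45B, a stress and growth-arrest protein, and TSC22D1, a leucine-zipper protein first found as a TGF-beta-stimulated gene, are TGF-beta targets. TAF3 binds H3K4me3 through its PHD finger, and TFIID is also held at core promoters by the TATA box.

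The core promoters of the genes with a single RefSeq start are shown first, because the 2 highest TAF3 fold enrichments of the 7 genes lie at such promoters. Their start regions also hold TATA-like letters, which the choice of genes did not use. The shorter of these letters, ATAAA and TATAA, were chosen after the sequences had been seen. Each window runs from 250 bases before the start to 50 after it, on the gene's own strand, as RefSeq gives it for GRCh38.p14. The ChIP-seq peaks are on hg19, so no window was placed inside a peak. Capitals mark the letters ATAAA or TATAA where they begin 20 to 40 bases before the start, the usual place of a TATA box. TGFBR2 has a pair of start windows that overlap, and the downstream one is shown as the contrast.
ID1, chr20:31605039-31605338, plus strand: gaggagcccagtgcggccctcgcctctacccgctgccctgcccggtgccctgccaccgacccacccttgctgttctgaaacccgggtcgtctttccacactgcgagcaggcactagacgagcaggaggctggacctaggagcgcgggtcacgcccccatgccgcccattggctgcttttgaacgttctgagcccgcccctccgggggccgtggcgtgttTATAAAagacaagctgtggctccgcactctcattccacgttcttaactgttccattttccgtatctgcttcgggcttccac
ID2, chr2:8681806-8682105, plus strand: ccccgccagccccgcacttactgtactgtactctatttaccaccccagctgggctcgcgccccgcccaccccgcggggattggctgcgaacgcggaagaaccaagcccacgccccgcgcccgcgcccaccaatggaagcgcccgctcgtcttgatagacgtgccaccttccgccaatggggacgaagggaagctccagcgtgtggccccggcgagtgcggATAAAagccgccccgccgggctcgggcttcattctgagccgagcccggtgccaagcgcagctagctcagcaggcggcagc
ID3, chr1:23559452-23559751, minus strand: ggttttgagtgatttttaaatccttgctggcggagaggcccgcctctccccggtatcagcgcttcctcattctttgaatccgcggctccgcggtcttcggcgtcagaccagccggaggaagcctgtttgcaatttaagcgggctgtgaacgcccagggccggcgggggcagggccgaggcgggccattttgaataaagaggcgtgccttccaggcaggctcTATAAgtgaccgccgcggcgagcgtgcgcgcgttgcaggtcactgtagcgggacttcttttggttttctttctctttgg
GADD45B, chr19:2475877-2476176, plus strand: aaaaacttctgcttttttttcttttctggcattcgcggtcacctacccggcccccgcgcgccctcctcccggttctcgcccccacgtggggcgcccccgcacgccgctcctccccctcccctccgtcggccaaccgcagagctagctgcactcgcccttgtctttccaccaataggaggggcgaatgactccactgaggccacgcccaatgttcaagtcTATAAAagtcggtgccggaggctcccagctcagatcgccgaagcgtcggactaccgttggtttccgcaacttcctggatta
TGFBR2, chr3:30606351-30606650, plus strand: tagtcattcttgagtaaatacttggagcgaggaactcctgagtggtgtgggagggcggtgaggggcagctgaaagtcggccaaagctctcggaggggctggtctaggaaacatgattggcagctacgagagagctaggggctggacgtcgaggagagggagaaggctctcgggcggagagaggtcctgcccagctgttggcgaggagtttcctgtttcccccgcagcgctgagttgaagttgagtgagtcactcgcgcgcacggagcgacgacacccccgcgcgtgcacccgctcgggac

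ID1 and GADD45B held the full TATA-box letters TATAAA, both beginning 31 bases before the start. ID2 held ATAAA at 30 bases and ID3 held TATAA at 29 bases, and neither TGFBR2 window held either motif in that stretch. The other genes have several starts, 5 windows for TSC22D1, 3 for SMAD7 and 2 for TGFBR2, which makes 14 windows for the 7 genes, some of them overlapping. On either strand and anywhere in a window, TATAAA was found at 4 of the 7 genes (ID1, TSC22D1, GADD45B and SMAD7), against 14.0% of all genes, and in 5 of the 14 windows, against 11.5% of all 35116 RefSeq windows. The search was then limited to the gene's own strand 20 to 40 bases before the start, a limit chosen after the sequences had been seen. There it was found at the same 4 genes, against 2.92% of all genes, and in 4 of the 14 windows, against 2.30% of windows. At SMAD7 it began 35 bases before the middle one of its 3 starts. The most upstream SMAD7 start held ATAAA at 26 bases instead, and the leading TAF3 peak of SMAD7 lay beyond the 5′ end of its rounded span. At TSC22D1 it began 28 bases before a start, in one of the windows at the 5′ end of the gene. The strongest TAF3 peak of TSC22D1 lay nearest the other end of its span. The TSC22D1 windows nearest that 3′ end held neither this motif nor the shorter letters in that stretch. ATAAA alone was found in that stretch in 6 of the 14 windows, against 4.65% of windows, and TATAA alone in 5, against 3.91%. With either of these shorter letters, also chosen after the sequences had been seen, 6 of the 7 genes had a match there, TGFBR2 being the exception, against 7.80% of all genes, and 7 of the 14 windows, against 6.23%. TATAAA contains both shorter motifs, so these counts are not separate. These 7 genes had more windows per gene (14 windows) than the background (35116 windows for 27305 genes). More windows give a gene more places to match, so the shares by gene are not like for like.

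Other promoter letters were searched on both strands of the same windows. The CCAAT box (CCAAT) was found at 5 of the 7 genes, ID1, ID2, TSC22D1, GADD45B and TGFBR2, against 39.7% of all genes, and in 7 of the 14 windows, against 34.6% of all windows. The GC box (GGGCGG) was found at 4 of the 7 genes, ID1, ID2, TSC22D1 and TGFBR2, against 48.3% of all genes, and in 5 of the 14 windows, against 45.0%, so that it lay above the background by genes and below it by windows. Of the SMAD motifs, the GC-rich GGCGCC was found in 2 of the 14 windows, 1 each of TSC22D1 and GADD45B, against 19.2%. CAGACA was found in 0 of the 14 windows, against 16.9%. The E box CACGTG was found in 2 of the 14 windows, 1 each of TSC22D1 and GADD45B, against 7.26%. TGACG, part of the CRE motif, was found in 1 of the 14, that of ID3, against 24.6%. A match here is a run of letters and not a bound site, and its absence says only that the letters are not in this window.

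All 7 genes carried TAF3, H3K4me3 and RNAPII peaks, and each gene had at least 1 peak of every antibody that passed the authors' filter (more than 5-fold enriched, with under 5% false discovery rate). The filter kept 12 of the 20 TAF3 peaks, against 65.8% of the whole list, 12 of the 17 H3K4me3 peaks, against 79.5%, and 23 of the 70 RNAPII peaks, against 40.7%. Fold enrichment is the authors' value for how many times a summit exceeded the background that input predicts there. Here the peak of highest fold enrichment at a gene is called its leading peak for that antibody. Since it is the highest of up to 54 peaks, its place among all peaks of a list is not a like-for-like comparison. The plot of peaks around each leading TAF3 summit shows the arrangement gene by gene.

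**Figure D1:**
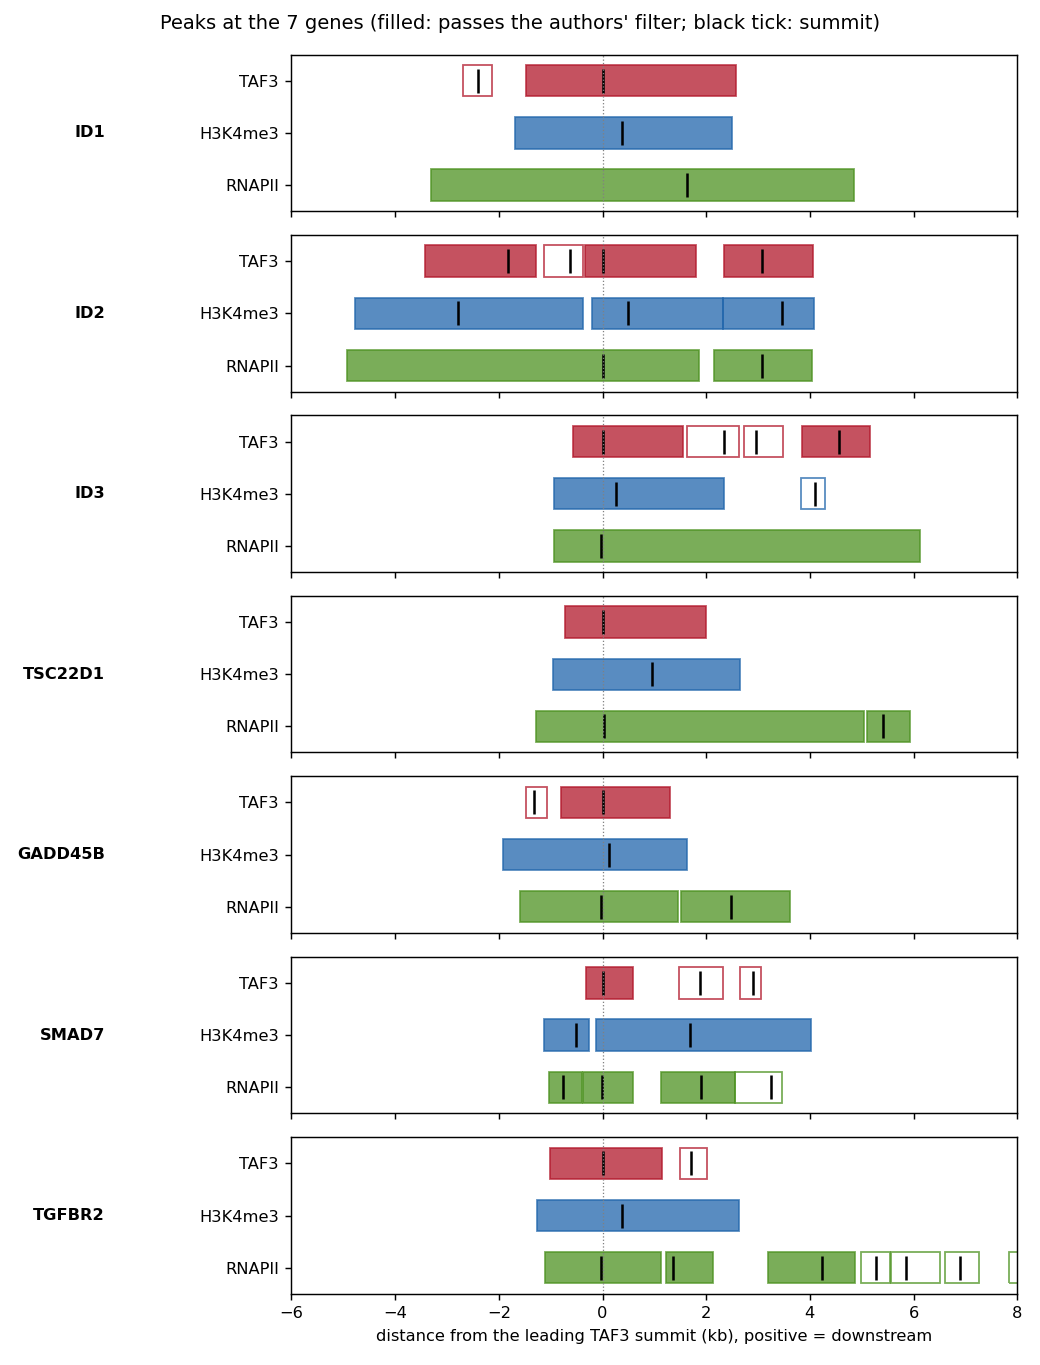
Peaks of TAF3, H3K4me3 and RNAPII at the 7 genes, drawn from 6 kb upstream to 8 kb downstream of the leading TAF3 summit (x axis, kb), with filled bars for peaks that passed the authors' filter, open bars for those that did not, and black ticks for summits. The RNAPII tick sits on the dotted line at every gene except ID1, where it lies 1635 bp downstream. The RNAPII bars of ID1, ID3 and TSC22D1 run past their H3K4me3 bars, and at GADD45B and TGFBR2 separate RNAPII bars further downstream reach past theirs.

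The ID genes gave one strong TAF3 peak each over the gene, and weaker ones beside it. ID2 had the highest TAF3 fold enrichment of the 7 genes, 178 with 485 tags at chr2:8821907-8824057, which was rank 5 of 17887. ID3 had 99.6-fold enrichment with 466 tags at chr1:23884341-23886468, rank 358. ID1 had 76.9-fold enrichment, rank 1027, but 1344 tags at chr20:30191742-30195785, rank 9 of the list by tags. So ID1 and ID2 stood in opposite order by fold enrichment and by tags. A weak TAF3 peak of 16.6-fold and 24 tags, which failed the filter, lay upstream of ID1.

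Around ID2 the enrichment extended well past the gene's own leading peak. A TAF3 peak of 33.1-fold and 232 tags lay upstream at chr2:8818818-8820957, a weak one of 12.8-fold and 42 tags lay between it and the leading peak, and one of 29.7-fold and 125 tags lay at the 3′ end, at chr2:8824581-8826302. H3K4me3 at ID2 was split into 3 peaks of 114-, 106- and 130-fold enrichment with 649, 923 and 339 tags from upstream to downstream. The leading one by fold was therefore the 3′ one, and the one under the TAF3 summit was the strongest by tags. RNAPII formed a peak of 283-fold and 1426 tags that reached 4921 bp upstream and 1861 bp downstream of the TAF3 summit. A second RNAPII peak, of 142-fold and 622 tags, lay at the 3′ end, with its summit 14 bp from the TAF3 summit there.

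ID3 had 1 RNAPII peak, of 210-fold enrichment and 2907 tags, which covered all 4 of its TAF3 peaks. It ended 930 bp upstream of the leading TAF3 summit and reached 6124 bp downstream, 3780 bp past the end of the H3K4me3 peak (132-fold, 1190 tags). Downstream of ID3's leading TAF3 peak lay TAF3 peaks of 5.46-, 6.52- and 26.1-fold enrichment with 35, 36 and 111 tags. The last of these, at chr1:23880744-23882046, passed the filter, and 2 narrow H3K4me3 peaks overlapped it. One, inside the window, had 14 tags and 9.52-fold enrichment, and the other, just outside it, had 64 tags and 29.3-fold enrichment.

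ID1 differed from the other genes in the position of its RNAPII summit. Its single RNAPII peak in the window held 5836 tags over 8151 bp, rank 19 of 61456 by tags, with 97.0-fold enrichment, rank 6941. RNAPII peaks left out by the window lay close to either end of it. They were chr20:30188517-30189720, with 20.8-fold enrichment and 68 tags, and chr20:30198141-30200171, with 30.2-fold enrichment and 231 tags. The RNAPII summit lay 1635 bp downstream of the TAF3 summit, and the peak reached 3300 bp upstream and 4850 bp downstream of it. H3K4me3 at ID1 was 95.6-fold with 1312 tags over 4189 bp, and its summit lay 385 bp downstream of the TAF3 summit. The authors kept at most 1 tag per position and strand, and the ID1 tags filled 35.8% of these positions over the whole RNAPII peak. The corresponding shares at the other 6 genes ran from 6.40% at SMAD7 to 21.3% at TSC22D1. Whether this limit on tags touches the place of the ID1 summit or its fold enrichment was not tested.

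GADD45B and TSC22D1, the remaining TGF-beta targets, had the strongest RNAPII peaks of the whole list by fold enrichment. GADD45B was first, with 313-fold enrichment and 662 tags over 3048 bp, and TSC22D1 was rank 2, with 306-fold enrichment and 2695 tags over 6337 bp. TAF3 was 164-fold with 412 tags at GADD45B (chr19:2475365-2477471, rank 10) and 137-fold with 461 tags at TSC22D1 (chr13:45008957-45011679, rank 55). H3K4me3 was 265-fold with 1058 tags at GADD45B, rank 137 of 17975 and the only one of the 7 in the top 1% of its list. At TSC22D1 it was 202-fold with 1116 tags, rank 1860. A second RNAPII peak began just past the first at GADD45B, at chr19:2477682-2479795, with 44.7-fold enrichment and 234 tags. The other TAF3 peak of GADD45B, upstream of the leading one, had 9.05-fold enrichment and 15 tags and failed the filter.

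TSC22D1 was marked at 3 separate places along its 148 kb window, all with TAF3, H3K4me3 and RNAPII peaks that passed the filter. The gene lies on the minus strand, and its strongest place was the one nearest the 3′ end of the span. At the 5′ end, at chr13:45150395-45152520, TAF3 was 32.5-fold with 273 tags, H3K4me3 was 149-fold with 944 tags and RNAPII was 92.9-fold with 602 tags. At the middle place, chr13:45047925-45048765, TAF3 was 29.7-fold with 53 tags, H3K4me3 was 67.7-fold with 118 tags and RNAPII was 132-fold with 145 tags. The end places thus had like numbers of H3K4me3 tags, 1116 at the 3′ place and 944 at the 5′ place. RNAPII differed more, with 2695 tags at the 3′ place against 602 at the 5′ place. Between these places 1 weak RNAPII peak (4.11-fold) and 1 weak H3K4me3 peak (15.9-fold) were listed, and both failed the filter. A further RNAPII peak of 29.5-fold and 76 tags lay just beyond the 3′ place.

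SMAD7 had the weakest TAF3 of the 7 genes. Its leading TAF3 peak, at chr18:46477728-46478645, had 63 tags and 29.4-fold enrichment, rank 7555, and lay 728 bp outside the rounded span, within the added 2 kb. A second TAF3 peak of 38 tags and 11.0-fold lay inside the span downstream of it, and another of 14 tags and 6.43-fold lay beyond that, and neither passed the filter. RNAPII had matching peaks at the first and second place, of 85.2-fold with 122 tags and 24.7-fold with 87 tags, with summits 1 and 25 bp from the TAF3 summits. H3K4me3 covered the stretch as a peak of 4147 bp with 738 tags and 77.3-fold enrichment, rank 10761, below the list's median of 103.5-fold. A narrower H3K4me3 peak of 55.4-fold and 115 tags lay upstream of it, over an RNAPII peak of 20.2-fold and 41 tags, and 1 more RNAPII peak, of 12.3-fold and 36 tags, lay downstream. At the 3′ end of SMAD7 an RNAPII peak (12.55-fold, 48 tags) and an H3K4me3 peak (21.2-fold, 55 tags) overlapped without TAF3, and both failed the filter.

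TGFBR2 had a strong H3K4me3 peak, a middling TAF3 peak and a long run of RNAPII. H3K4me3 was 151-fold with 1230 tags at chr3:30646899-30650779, TAF3 was 44.5-fold with 371 tags at chr3:30647140-30649308, rank 4190, and RNAPII over the start was 102-fold with 528 tags. A second TAF3 peak just downstream had 11.5-fold enrichment and 19 tags, and the other H3K4me3 peaks, of 5.88-fold with 26 tags and 7.78-fold with 12 tags, were as weak. These 3 failed the filter. In all, 54 RNAPII peaks overlapped the 92 kb window of TGFBR2 and covered 54.6% of it. In windows of that length centred on each of the 17887 TAF3 peaks, the median number of RNAPII peaks was 6 and the highest 51. Those windows reach equally far to both sides of a TAF3 summit. The TGFBR2 window starts near its TAF3 peak and runs along the gene, so the numbers are not a like-for-like comparison. TSC22D1, with a longer window, had 5 RNAPII peaks, which covered 8.11% of it, and SMAD7 had 5, which covered 12.4%.

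The RNAPII peaks along TGFBR2 were individually weak. Leaving out the leading peak and the last one, the 52 peaks between had 10 to 139 tags with a median of 27.5, and fold enrichments of 5.51 to 24.7 with a median of 9.38. Their density was 43.6 tags per kb, against 236 in the leading peak, and 8 of the 52 passed the filter. Of these 52 peaks, 1 coincided with TAF3 and 3 with H3K4me3. Within the window the run ended in a wider peak of 5229 bp at chr3:30735596-30740824, with 454 tags and 38.3-fold enrichment. That peak extends past the end of the rounded span. Just outside the window another RNAPII peak followed, at chr3:30740854-30745226, with 33.7-fold enrichment and 305 tags. The end of the run given here is thus set by the window.

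**Figure D2:**
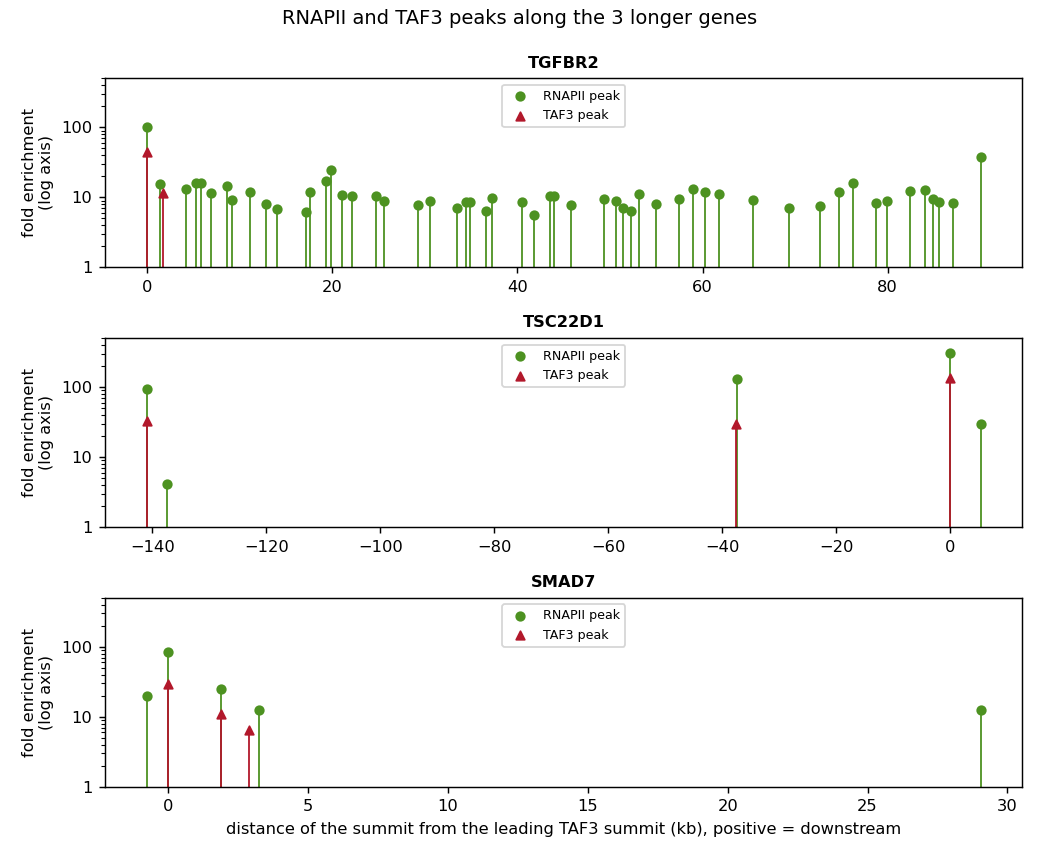
Fold enrichment (y axis, log scale) of each RNAPII peak (circles) and TAF3 peak (triangles) along TGFBR2, TSC22D1 and SMAD7, placed by the distance of its summit from the leading TAF3 summit (x axis, kb). TGFBR2 has 54 RNAPII circles along its length with TAF3 at the start alone, while TSC22D1 has 3 places with both and few peaks between them.

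Tags per kb of peak were set side by side between genes for 1 antibody. This density depends on where each peak was bounded and is not corrected for input. It is also subject to the limit of 1 tag per position and strand, and the intervals below cover none of these. For TAF3 the order was ID1 with 332 tags per kb, ID2 with 225, ID3 with 219, GADD45B with 196, TGFBR2 with 171, TSC22D1 with 169 and SMAD7 with 68.6. Exact Poisson 95% intervals, which cover counting error only, were 315 to 351 for ID1, 206 to 246 for ID2 and 200 to 240 for ID3. They were 177 to 215 for GADD45B, 154 to 189 for TGFBR2, 154 to 185 for TSC22D1 and 52.7 to 87.8 for SMAD7. ID1 stood above and SMAD7 below all others, and each neighbouring pair from ID2 to TSC22D1 had overlapping intervals.

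RNAPII densities fell into another order. ID1 again led, with 716 tags per kb (interval 698 to 735), followed by TSC22D1 with 425 (409 to 442) and ID3 with 412 (397 to 427). TGFBR2 had 236 (217 to 257), GADD45B 217 (201 to 234), ID2 210 (199 to 221) and SMAD7 128 (106 to 153). TSC22D1 and ID3 overlapped in their intervals, as did TGFBR2, GADD45B and ID2. H3K4me3 densities in the leading peaks were closer together at 5 genes, from 297 tags per kb at GADD45B to 362 at ID3, with ID2 (193) and SMAD7 (178) lower. At ID2 the H3K4me3 peak under the TAF3 summit had 366 tags per kb, so its low value belongs to the peak at the 3′ end that led by fold enrichment.

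**Figure D3:**
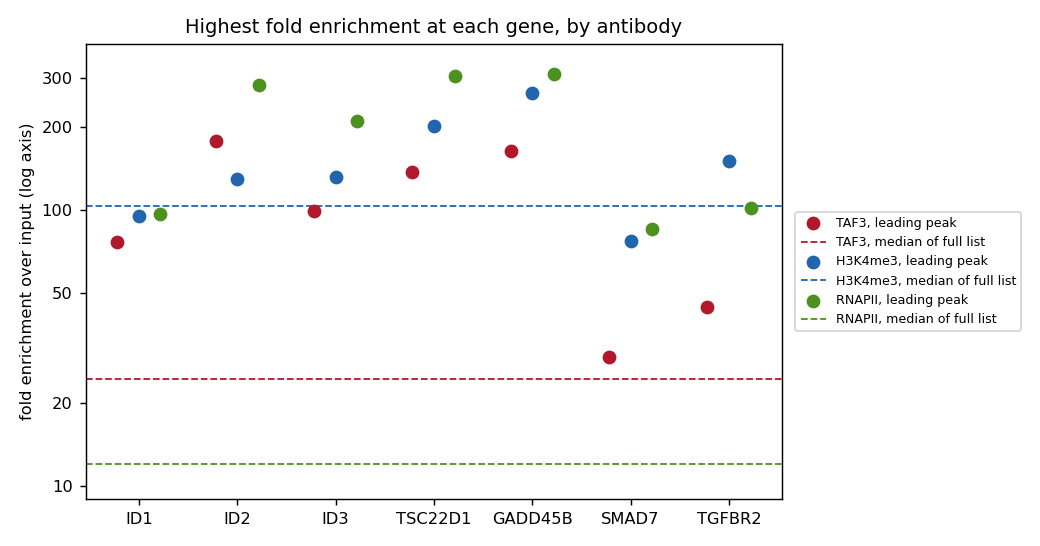
Fold enrichment over input (y axis, log scale) of the leading TAF3, H3K4me3 and RNAPII peak at each of the 7 genes (x axis), with dashed lines for the median of each full list. All 7 TAF3 and all 7 RNAPII points lie above their list medians of 24.4 and 12.0, while H3K4me3 points of ID1 (95.6) and SMAD7 (77.3) lie below the H3K4me3 median of 103.5.

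The places of the leading peaks in their whole lists are given as a description. Among them, 3 of 7 were in the top 1% of the TAF3 list by fold enrichment (0.995% of all peaks with ties), 4 of 7 in that of RNAPII (0.991%) and 1 of 7 in that of H3K4me3 (0.979%). The choice of genes used TAF3 and RNAPII strength, so nothing is read from the first 2 counts. The median leading peak exceeded 97.998% of the TAF3 list, 99.2% of the RNAPII list and 62.8% of the H3K4me3 list. The measure mattered for single genes. ID1 exceeded 94.2% of TAF3 peaks by fold enrichment and 99.9% by tags, and 46.8% of H3K4me3 peaks by fold enrichment and 91.1% by tags. ID2 went the other way for H3K4me3, at 61.9% by fold enrichment and 41.6% by tags.

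**Figure D4:**
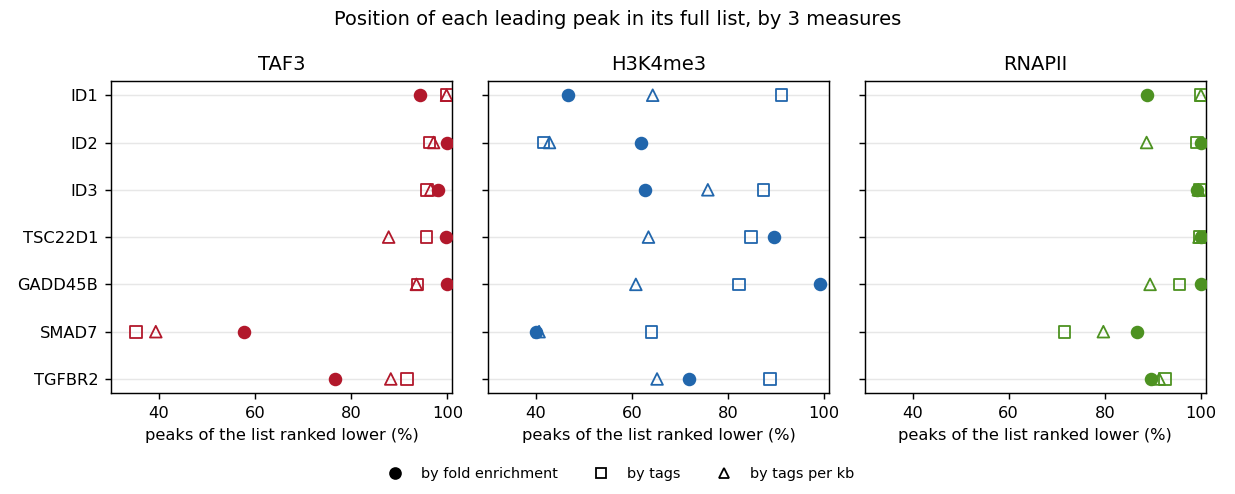
Share of the full list ranked below each gene's leading peak (x axis, %), by fold enrichment (filled circles), tags (squares) and tags per kb (triangles), for TAF3, H3K4me3 and RNAPII. Measures lie close together for ID3 in TAF3 and RNAPII and far apart for ID1 in H3K4me3, where fold enrichment gives 46.8% and tags 91.1%.

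Fold enrichment of H3K4me3 relative to that of TAF3 was lower at the ID genes, TSC22D1 and GADD45B than at SMAD7 and TGFBR2, which had the lowest TAF3. Among the former genes it did not follow the order of TAF3 fold enrichment. The ratio of H3K4me3 to TAF3 fold enrichment, each over the same input, was 0.60 at ID2, 1.24 at ID1, 1.33 at ID3, 1.47 at TSC22D1 and 1.62 at GADD45B. It was 2.63 at SMAD7 and 3.39 at TGFBR2, against a median of 3.66 over the 15390 TAF3 peaks that overlapped both partners. The ID2 ratio was lower than at all but 0.62% of these peaks, and the values for the other ID genes than at all but 5.61% and 6.50%. RNAPII to TAF3 ratios ran from 1.26 at ID1 to 2.90 at SMAD7, all below the median of 3.02. TAF3 strength was known when the genes were chosen and is the divisor of these ratios. A high TAF3 value lowers both ratios by construction, so their places among all peaks are descriptions, and no lack of H3K4me3 or RNAPII is read from them.

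**Figure D5:**
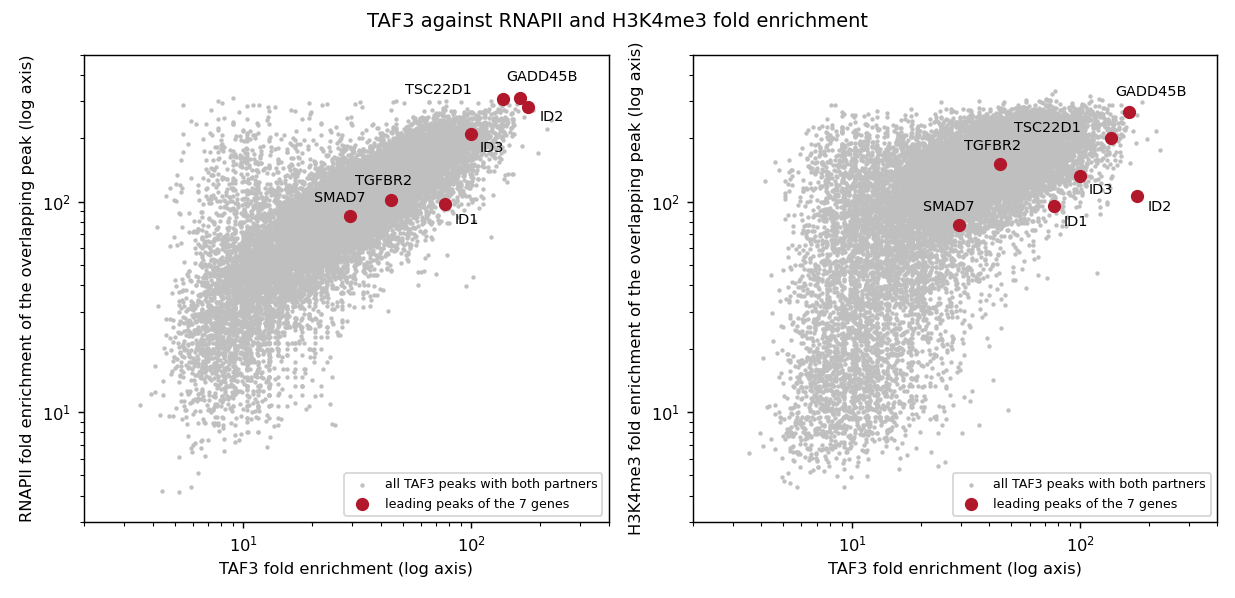
TAF3 fold enrichment (x axis, log scale) against the fold enrichment of the overlapping RNAPII peak (left) and H3K4me3 peak (right, y axes, log scale), for 15390 TAF3 peaks with both partners (grey) and the leading peaks of the 7 genes (red). ID2 lies near the right edge of the H3K4me3 panel at 106-fold, low for its TAF3 value of 178, and ID1 lies low in the RNAPII panel at 97.0-fold.

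Summit positions were not used to choose the genes. From the leading TAF3 summit the nearest RNAPII summit was 1 bp away at SMAD7, 3 bp at ID2, 20 bp at TSC22D1, 24 bp at GADD45B, 30 bp at ID3 and 38 bp at TGFBR2. Those 6 of 7 were within 50 bp, against 47.6% of all TAF3 peaks and 73.0% of those in the top 10% by fold enrichment. The share is nearer that of the top 10%, but SMAD7 and TGFBR2, both within 50 bp, are not in it. Their leading TAF3 peaks exceeded 57.8% and 76.5% of the list, so the groups are not alike. ID1, at 1635 bp, was the exception. The nearest H3K4me3 summit was 124 bp away at GADD45B, 268 bp at ID3, 371 bp at TGFBR2, 385 bp at ID1, 487 bp at ID2, 507 bp at SMAD7 and 956 bp at TSC22D1. None of the 7 was within 50 bp, against 8.29% of all TAF3 peaks and 3.06% of the top 10%, a low share throughout. At 6 genes that H3K4me3 summit was downstream of TAF3, and at SMAD7 it was upstream, in the narrower of the pair of H3K4me3 peaks there.

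Most of the weaker TAF3 peaks at these genes also had partners. Of the 20 TAF3 peaks 18 touched H3K4me3 as well as RNAPII, against 86.0% of the full list, and the other 2, at ID1 and ID3, overlapped RNAPII without H3K4me3. In the filtered lists 12 of 12 had both, against 97.6%. TAF3 was present at 13 of the 17 H3K4me3 peaks, against 82.8% of that list, and at 13 of the 70 RNAPII peaks, against 27.2%. At TGFBR2 it was present at 2 of the 54 RNAPII peaks. The summits of the weaker TAF3 peaks lay farther from RNAPII summits: over all 20 peaks the median distance was 225 bp, against 24 bp over the 7 leading ones and 56 bp over the whole list. Several of these weaker peaks share 1 wide RNAPII peak, as at ID3, and a wide peak has a single summit.

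RNAPII peaks were wide at the ID genes and TSC22D1. The RNAPII peak over the leading TAF3 summit was 8151 bp wide at ID1, 7055 bp at ID3, 6783 bp at ID2 and 6337 bp at TSC22D1. These widths exceeded 96.5%, 95.4%, 95.1% and 94.6% of the RNAPII partners of the 15390 TAF3 peaks, whose median was 1636 bp. GADD45B (3048 bp) and TGFBR2 (2234 bp) were also above that median, and SMAD7 (953 bp) was below it. RNAPII ran past the H3K4me3 peak on the downstream side by 3780 bp at ID3, 2398 bp at TSC22D1 and 2352 bp at ID1. At ID2 it ran past the H3K4me3 peak upstream, by 4717 bp, over the neighbouring H3K4me3 peak. On the downstream side the ID2 RNAPII peak ended inside the H3K4me3 peak, at -458 bp relative to its downstream end. At GADD45B, SMAD7 and TGFBR2 the RNAPII peak over the leading TAF3 summit also ended inside the H3K4me3 peak, at -183, -3435 and -1500 bp relative to its downstream end. Separately called RNAPII peaks followed at ID2 (chr2:8824396-8826284), GADD45B (chr19:2477682-2479795) and TGFBR2 (from chr3:30649373), and they reached past the end of that H3K4me3 peak. For these genes the value thus depends on where RNAPII was split into peaks. The same holds for ID1 and TSC22D1, where a further RNAPII peak began just downstream of the wide one. H3K4me3 partners were at least 3285 bp wide at 6 genes, and 2524 bp at ID2, against a median of 2268 bp.

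Places outside this group came close to these genes in TAF3 and RNAPII fold enrichment. For each gene the closest TAF3 peaks were found by the distance of log2 fold enrichment of TAF3 and of its RNAPII partner, among 15372 other peaks. For ID2 the closest was chr3:41240206-41241982, with 177-fold TAF3, 274-fold RNAPII and 257-fold H3K4me3, the last against 106-fold at ID2. For GADD45B it was chr2:198363209-198366185, with 158-fold TAF3, 290-fold RNAPII and 218-fold H3K4me3, against 164-, 313- and 265-fold at GADD45B. The closest for TSC22D1, chr1:8936434-8939985, had 138-fold TAF3, 294-fold RNAPII and 287-fold H3K4me3, and the next closest had 99.8-fold H3K4me3, against 202-fold at TSC22D1. No other place in the list reached the RNAPII fold enrichment of these 2 genes. For ID3 the closest was chr5:138608221-138610818, with 99.2-fold TAF3, 207-fold RNAPII and 192-fold H3K4me3, the last against 132-fold at ID3. The closest for ID1, chr1:161128619-161130136, had 77.3-fold TAF3, 98.7-fold RNAPII and 136-fold H3K4me3, the last against 95.6-fold at ID1. For SMAD7 the closest was chr4:156874354-156875402, with 29.5-fold TAF3, 85.7-fold RNAPII and 74.5-fold H3K4me3. For TGFBR2 it was chr3:48672004-48673610, with 44.4-fold TAF3, 103-fold RNAPII and 165-fold H3K4me3. GADD45B had the farthest of these 7 neighbours, at a distance of 0.12.

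The edge of the added 2 kb took in and left out peaks of like strength. It brought in 7 TAF3 peaks of 6.52- to 33.1-fold enrichment, among them SMAD7's leading peak, while the nearest TAF3 peaks outside, 1 on each side of each gene, ran from 5.54- to 65.9-fold. The closest one left out lay 2001 bp from the rounded end of ID1, at chr20:30196001-30196923, with 14.7-fold enrichment and 49 tags. It lies within the RNAPII peak of ID1.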

How the data were processed

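Chromatin from HCT116 cells was immunoprecipitated for TAF3, H3K4me3 or RNAPII, and 1 library of each and 1 of input DNA were sequenced. Per the submitters' processing notes, CASAVA 1.8.2, MACS 1.4.2 and hg19 were used. How reads were aligned is not stated in what was used here. Per the file headers, the authors called peaks for each antibody against the same input with a p cutoff of 1e-05 and at most 1 tag per position. This left 17411155 TAF3, 12560129 H3K4me3, 16841238 RNAPII and 19185386 input tags, per the file headers. The deposited tag count of a peak is a whole number not scaled to depth. Fold enrichment as deposited is a ratio over input background, the deposited score is minus 10 times log10 of the p-value, and false discovery rates were deposited in percent. All are the authors' values. The deposited filtered lists hold exactly the peaks with fold above 5 and a rate below 5%.

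Overlaps (at least 1 bp), ranks, summit distances and motif matches were computed with Python 3.11.15, numpy 2.4.6, pandas 2.3.3 and scipy 1.17.1. Overlap counting was checked on simulated peaks. Groups came from sample titles. With 1 library per antibody there is no test, and intervals cover counting error only. All 7 members are named with their leading peaks, and for each the 2 most similar TAF3 peaks were found, of which the closest is given. Members and lists were chosen with earlier results of these data known. Promoter sequences and gene strands are RefSeq's, GRCh38.p14, and were matched by symbol for 7 of 7 genes. No hg19 annotation was at hand, so other genes of the pathway and cell type markers were not analysed here.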

Additional observations from a re-analysis of the deposited data

How the results depend on the processing

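Of the alternatives, those that left out a gene, limited TATAAA to 20 to 40 bases before the start or searched shorter TATA-like letters were chosen after seeing the data. All 7 genes kept a peak of each antibody in the filtered lists, at every margin tried (none, 5 and 10 kb) and with 50% of the peak inside. The genes were chosen by TAF3 and RNAPII peak strength, and a wider margin can only add peaks, so this was largely set in advance. The filtered lists held 12 TAF3 and 23 RNAPII peaks at the genes, and without a margin there were 13 TAF3 peaks. The median place of the leading TAF3 peaks, 97.998% by fold enrichment, was 95.6% by tags, 93.5% by tags per kb, 91.3% by score, 96.96% among filtered peaks and 98.8% without SMAD7. For H3K4me3, 62.8% became 84.7% by tags, 40.006% by score, 53.2% among filtered peaks and 67.3% without SMAD7. For RNAPII, 99.2% became 99.1% by tags, 91.3% by tags per kb, 86.4% by score, 98.1% among filtered peaks and 99.6% without SMAD7. Scores at the top of each list are tied, and tied peaks count as not lower. Without ID1 the median summit distance was 22 bp to RNAPII and 429 bp to H3K4me3, against 24 and 385 bp with it, in the filtered lists and with the partner of highest fold. Of the 12 member TAF3 peaks in the filtered lists 12 overlapped both partners there (100%), against 90% in the full lists. On the gene's own strand alone GGGCGG was found at 2 genes, CCAAT at 3 and TGACG at 0. Apart from what the settings change by construction (fewer peaks, fewer genes, 1 strand), the cause of these shifts was not tested. There are no replicates, so no library could be left out. No paired analysis was possible because each antibody has 1 library. At this depth a weak peak rests on few tags: 14 at SMAD7's weakest TAF3 peak, 10 at the weakest RNAPII peak of TGFBR2.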
